A study of Mus musculus with 4 samples.

Results

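The 10 genes described here encode ligands of the TNF superfamily other than TNF itself, namely *Cd40lg*, *Fasl*, *Tnfsf10*, *Tnfsf14*, *Ltb*, *Lta*, *Tnfsf11*, *Tnfsf8*, *Tnfsf9* and *Tnfsf4*. They were taken by symbol from the 25239 genes of the count table, and all 10 are in it. Their transcripts were counted in 4 RNA-seq libraries from the small intestinal lamina propria (SI-LP) of WT C57BL/6Jax mice, each made from sorted NKT cells, the T cells whose receptor sees lipids bound to CD1d. The study used young adult mice, which received an anti-ARTC2 nanobody before the tissue was taken, and the cells were sorted as live TCRβ+ cells that bound the CD1d tetramer and lacked B220, CD11b, CD11c and CD8. The sample titles mark replicates 3 and 4 as First and replicates 1 and 2 as Second, without saying what these words stand for. They are called the first and the second experiment here. The names of the count columns split the same way by prefix and lane code, so these cannot be told apart. The study used mice of both sexes, and neither the sex nor the number of mice behind each library is given, so the spread between libraries, which is all that the p-values below measure, may be technical. All 4 libraries are of the same condition, with no treatment compared, and lymphoid NKT cells were not analysed here. The values below are thus levels in libraries of sorted SI-LP NKT cells with their spread.

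Ligands of this superfamily are mostly membrane proteins that assemble as trimers and bind receptors of the TNF receptor superfamily on neighboring cells, and some are cut from the surface by proteases. Those of activated T cells fall into groups by what their receptors do. CD40L, the product of *Cd40lg*, activates dendritic cells, macrophages and B cells through CD40, FasL and TRAIL (*Fasl* and *Tnfsf10*) can kill cells that carry their receptors, and membrane lymphotoxin and LIGHT (*Lta*, *Ltb* and *Tnfsf14*) act on stromal and epithelial cells through the lymphotoxin β receptor. RANKL (*Tnfsf11*) is known in the gut for inducing M cells, and CD30L, 4-1BBL and OX40L (*Tnfsf8*, *Tnfsf9* and *Tnfsf4*) are costimulatory ligands known from antigen-presenting cells and activated T cells.

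Total counts ran from 3882803 to 8732858 per library, of which *Rn45s*, the ribosomal RNA precursor, took 7.36% to 28.1%. Levels are given as CPM, counts scaled to library size with edgeR's TMM factors, for comparison between libraries, and as TPM, which also divides by gene length, for comparison between genes. A count of 0 allows a level of up to 3 counts, or 0.417, 0.287, 0.672 and 0.750 CPM in replicates 1 to 4, and this floor covers counting error only. All 9 T cell markers examined (*Cd3e* and others) were above 3 counts in every library and took 0.132% to 0.398% of the counts, and the 7 NKT and NKT1 markers were likewise detected, while *Cd8a* and *Cd8b1* had at most 13 counts together. Markers of other cells were not absent. The 20 epithelial markers took 0.0222% of the counts in replicate 3 and 0.103% in replicate 1, but 0.995% in replicate 2 and 3.01% in replicate 4, and the 6 plasma cell markers took 0.671% and 0.821% in replicates 1 and 2 against 0.000547% and 0.0261% in replicates 3 and 4. *Flt3* and *Clec9a* of dendritic cells and *Ncr1* of innate lymphoid cells were at 0 counts in all 4. In such bulk libraries, fewer cells of a type and less RNA per cell cannot be told apart.

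The SI-LP NKT cell libraries held transcripts of *Cd40lg* and *Fasl* at high levels and of *Tnfsf10*, *Ltb* and *Tnfsf14* at intermediate levels. Those of the other 5 ligands were at or near the limit of detection. The part of other cells in these levels was not tested. Of the 10 genes, 4 (*Cd40lg*, *Fasl*, *Tnfsf10* and *Ltb*) had more than 3 counts in every library, which held for 35.9% of all genes in the table. The filter used for testing, at least 10 counts in at least 2 libraries, was passed by 6, against 46.3% of all genes. The genes that did not pass it were *Lta*, *Tnfsf8*, *Tnfsf9* and *Tnfsf4*. The summed level of the 10 genes was 882, 366, 985 and 438 CPM in replicates 1 to 4, with a mean of 668 ± 311 CPM (SD, n = 4). Replicates 2 and 4, the libraries with the larger epithelial share within their experiment, were thus the lower ones. The part of epithelial RNA in this difference was not tested.

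**Figure D1:**
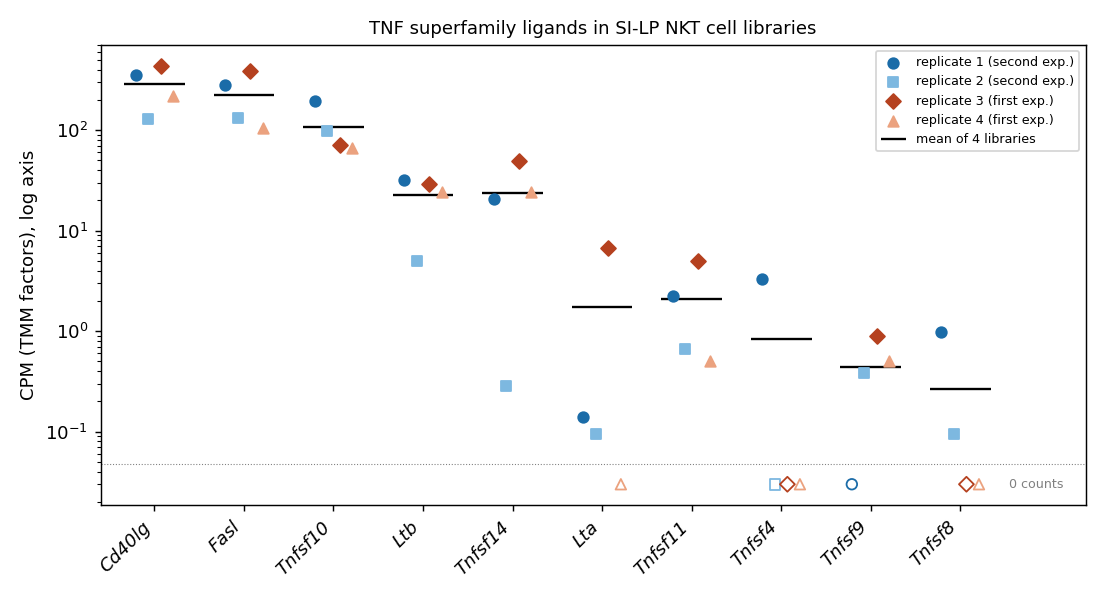
CPM (log axis, TMM factors) of the 10 ligands in each of the 4 SI-LP NKT cell libraries, ordered by mean TPM. Filled symbols are libraries, black lines are means, and open symbols at the bottom mark libraries with 0 counts. *Cd40lg* and *Fasl* lay at 104 CPM or above in every library, whereas *Tnfsf4* had counts in replicate 1 and 0 counts in the others.

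*Cd40lg* and *Fasl* made up most of the ligand transcripts in every library. *Cd40lg* alone held 55.3%, 52.6%, 56.1% and 62.8% of the summed TPM of the 10 ligands in replicates 1 to 4, a mean of 56.7% ± 4.34 (SD, n = 4). *Fasl* followed with 28.4%, 34.7%, 31.9% and 19.5%, so that these genes together held 82.3% to 88.0%. The lower ligands varied more. *Tnfsf10* took 7.67%, 9.95%, 2.32% and 4.87%, *Ltb* 5.67%, 2.30%, 4.26% and 7.99%, and *Tnfsf14* 2.16%, 0.0777%, 4.21% and 4.64%. The 6 ligands that passed the filter held at least 99.1% in each library. Without correction for length, *Cd40lg* still led on average but with 42.4% of the summed CPM, since the transcript of *Tnfsf10* (4944 exonic bases) is much longer than that of *Cd40lg* (1250).

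**Figure D2:**
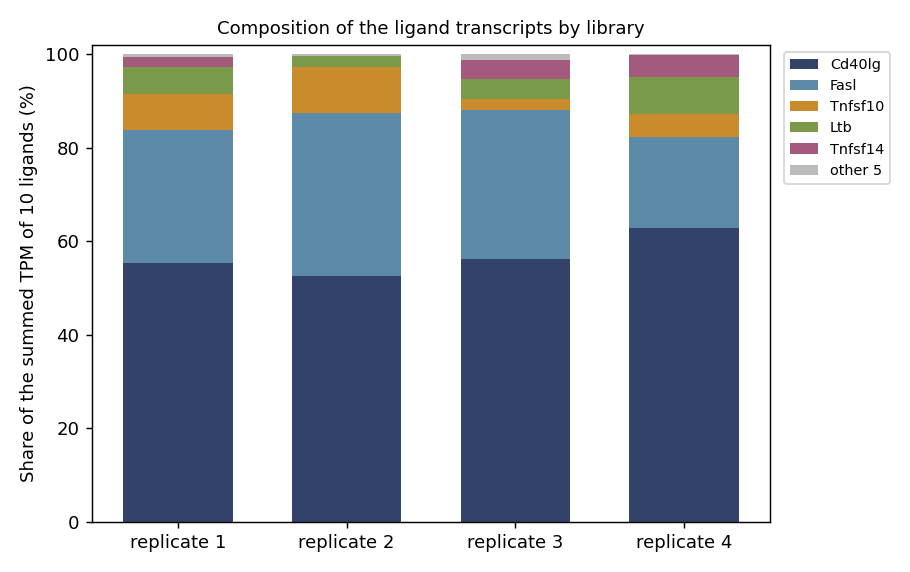
Share of each ligand in the summed TPM of the 10 ligands (%, stacked to 100) for each library. The *Cd40lg* segment spans 52.6% to 62.8% and the 5 least abundant ligands together are barely visible.

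*Cd40lg* (chromosome X, 57212143 to 57224042, GRCm38), the gene of CD40L, had 351, 130, 438 and 217 CPM in replicates 1 to 4. Replicates 3 and 1 were high and replicates 4 and 2 low, so that the experiments overlapped. Its mean was 284 ± 137 CPM, and its mean TPM of 613 ± 278 placed it at percentile 98.2 of the 11689 genes that passed the filter. It was the most abundant of the 10 ligands by TPM in all 4 libraries. The mean was 241 CPM in the second experiment and 328 CPM in the first, a log2 difference (second minus first) of -0.45 with a standard error of 0.71, and its sign turned when replicate 2 or replicate 3 was left out.

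Of the death ligands, *Fasl* (chromosome 1, 161780692 to 161788495) had 280, 132, 385 and 104 CPM, with a mean of 225 ± 131 CPM and a mean TPM of 316 ± 171 at percentile 96.4. It ranked below *Cd40lg* by TPM in every library, by 1.02 ± 0.47 log2 units on average. By CPM, which keeps the effect of length, *Fasl* was slightly above *Cd40lg* in replicate 2. *Tnfsf10* (chromosome 3, 27317077 to 27339665), the gene of TRAIL, had 193, 97.1, 71.5 and 66.7 CPM, a mean of 107 ± 58.7 CPM. Both libraries of the second experiment lay above both of the first, which also held for 14.7% of the genes tested. Its mean TPM was 61.6 ± 38.8, at percentile 76.6.

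Sequences upstream of the start are shown for *Fasl*, *Tnfsf10*, *Ltb* and *Lta*, since these span the range from abundant to barely detected and *Ltb* and *Lta* are neighbors in the genome. RefSeq promoters (GRCm38.p6) were found for 7 of the 10 genes, with no entry for *Cd40lg*, *Tnfsf9* and *Tnfsf4*. The 250 bases before the start are written 5′ to 3′ on the strand of the gene. They lie at chr1:161788496-161788745 (minus strand) for *Fasl*, chr3:27316827-27317076 (plus strand) for *Tnfsf10*, chr17:35194257-35194506 (plus strand) for *Ltb* and chr17:35205352-35205601 (minus strand) for *Lta*. Capitals mark GGAAA, the core bound by NFAT factors, on either strand, and the consensus of NF-κB.
Fasl: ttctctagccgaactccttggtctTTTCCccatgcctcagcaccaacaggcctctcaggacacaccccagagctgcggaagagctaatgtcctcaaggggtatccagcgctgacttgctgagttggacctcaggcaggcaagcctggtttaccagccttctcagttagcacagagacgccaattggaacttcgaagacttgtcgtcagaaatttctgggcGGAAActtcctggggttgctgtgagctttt
Tnfsf10: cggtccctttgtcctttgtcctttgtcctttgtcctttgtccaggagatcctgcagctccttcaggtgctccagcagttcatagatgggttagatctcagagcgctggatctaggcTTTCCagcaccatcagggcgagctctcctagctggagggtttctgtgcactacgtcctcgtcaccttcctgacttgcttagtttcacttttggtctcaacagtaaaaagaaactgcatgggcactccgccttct
Ltb: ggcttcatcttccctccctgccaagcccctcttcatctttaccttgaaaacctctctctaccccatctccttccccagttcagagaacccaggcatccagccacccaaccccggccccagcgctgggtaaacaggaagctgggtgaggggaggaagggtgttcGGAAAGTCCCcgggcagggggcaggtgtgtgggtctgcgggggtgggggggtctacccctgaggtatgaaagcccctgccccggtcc
Lta: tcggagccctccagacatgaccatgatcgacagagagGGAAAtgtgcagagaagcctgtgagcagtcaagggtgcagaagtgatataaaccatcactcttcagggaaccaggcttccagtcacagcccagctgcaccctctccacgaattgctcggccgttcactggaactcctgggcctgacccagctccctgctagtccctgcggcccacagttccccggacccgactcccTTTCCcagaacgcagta
GGAAA was present on either strand in all 7 promoters, and in 55.6% of the 27025 promoters of the same length. The NF-κB consensus was found only in that of *Ltb* among the 7, where it overlaps a GGAAA, and in 7.01% of all promoters. The TATA motif TATAAA was present in *Lta* and *Tnfsf11* (13.0% of all) and the AP-1 motif TGANTCA in *Tnfsf14* (6.87% of all). These matches describe letters in the window and not sites in use, and the levels of the genes did not enter the search.

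The lymphotoxin genes, which lie close together with *Tnf* on chromosome 17, differed widely in level. *Ltb* (35194507 to 35196305), whose product holds lymphotoxin at the membrane, had 31.5, 4.97, 29.1 and 24.2 CPM, with replicate 2 far below the other 3. Its mean was 22.5 ± 12.1 CPM, or 55.1 ± 30.3 TPM at percentile 74.2. *Lta* (35203165 to 35205351), the partner that lymphotoxin needs in either form, had 1, 1, 30 and 0 counts in replicates 1 to 4, equal to 0.139, 0.0956, 6.72 and 0 CPM. It was thus above 3 counts in replicate 3 alone. *Tnf* lies 1157 bases from *Lta* on the same strand and 3061 bases from *Ltb*, and no exonic base is shared between any of these 10 ligands and another gene of the table. Of the same chromosome, *Tnfsf14* (57189474 to 57194181), which encodes LIGHT, had 20.6, 0.287, 49.1 and 24.0 CPM, a mean of 23.5 ± 20.01 CPM. Replicate 2, the deepest library, held 3 counts of it and the others 96 to 219. Both libraries of the second experiment lay below both of the first, as in 14.4% of the genes tested.

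*Tnfsf11* (chromosome 14, 78277446 to 78308043), the gene of RANKL, was low, with 16, 7, 22 and 2 counts or 2.22, 0.669, 4.93 and 0.500 CPM. Its mean TPM of 2.47 ± 2.23 placed it at percentile 5.30 of the genes that passed the filter.

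The costimulatory ligands were scarcely detected. *Tnfsf4* (chromosome 1, 161395438 to 161418206), the gene of OX40L, had 24 counts in replicate 1, or 3.33 CPM, and 0 counts in the other 3 libraries. *Tnfsf8* (chromosome 4, 63832824 to 63861284) had 7, 1, 0 and 0 counts, and *Tnfsf9* (chromosome 17, 57105385 to 57107757) 0, 4, 4 and 2 counts, so that no library held more than 0.972 CPM of *Tnfsf8* or 0.896 CPM of *Tnfsf9*. *Tnfsf4* was thus above the other costimulatory ligands in replicate 1 alone.

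Relative to T cell transcripts, the level of *Cd40lg* was far less variable than in CPM. Of the counts on the 9 T cell markers, *Cd3e* gave the most, with 13247 of 23136 in replicate 1 and 6428 of 11524 in replicate 2. In replicates 3 and 4 *Cd3e* gave 9340 of 21841 and 3408 of 7116, so the scale leans on this gene. For each 1000 counts on the 9 T cell markers there were 109, 118, 89.5 and 122 counts of *Cd40lg* in replicates 1 to 4, a mean of 110 ± 14.5 (SD, n = 4). Its coefficient of variation between libraries was 13.2% on this scale and 48.3% in CPM, at percentiles 0.453 and 33.0 of all genes tested, whose medians were 85.7% and 63.5%. *Fasl* had 87.0, 120, 78.6 and 58.6 counts per 1000, and its coefficient of variation was 29.9% against 58.2% in CPM. *Ltb* had 9.81, 4.51, 5.95 and 13.6 counts per 1000, with a coefficient of variation of 48.4%. This lay at percentile 15.8 of all genes tested, against 39.2 in CPM. *Tnfsf10* had 60.0, 88.2, 14.6 and 37.5 counts per 1000 and a coefficient of variation of 62.8% against 54.8% in CPM. Set against all genes, whose median also rose, it lay at percentile 28.4 on this scale and 40.7 in CPM. Replicate 2, the lowest library for *Cd40lg* in CPM, was thus the highest for *Fasl* and *Tnfsf10* when set against T cell markers. It was the lowest for *Tnfsf14* on either scale, with 0.260 counts per 1000 against 6.40 to 13.5 in the others.

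**Figure D3:**
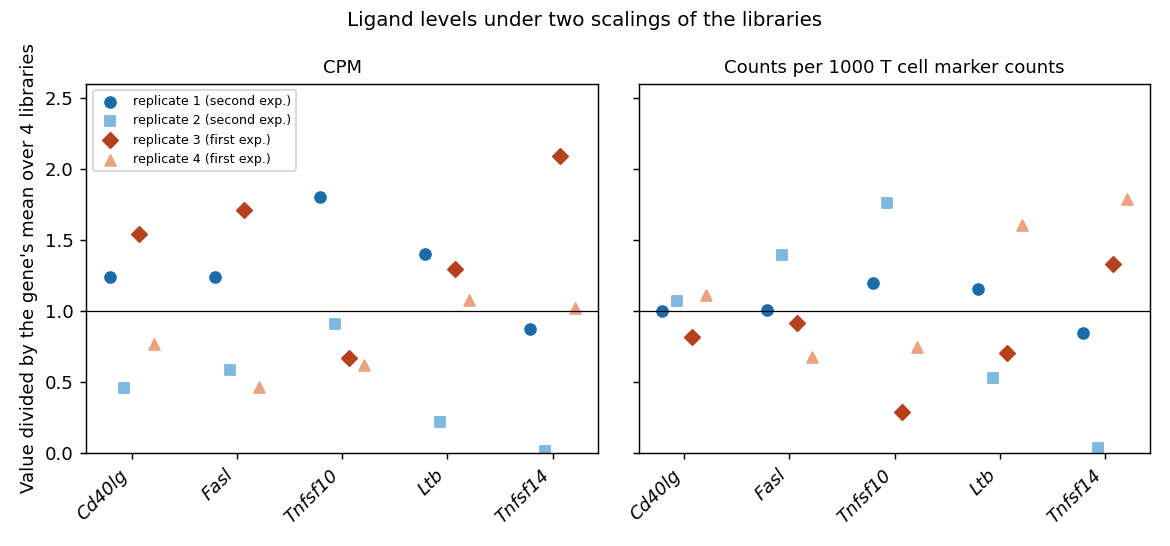
Values of the 5 most abundant ligands in each library divided by the mean of the gene over 4 libraries, for CPM (left) and for counts per 1000 counts on 9 T cell markers (right). The *Cd40lg* points draw together on the right, where they range from 89.5 to 122 counts per 1000, while those of *Tnfsf10* and *Tnfsf14* stay apart.

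Within each experiment the ligands and the T cell markers were lower in the same library. All 6 ligands that passed the filter were lower in replicate 4 than in replicate 3 and in replicate 2 than in replicate 1, as were all 9 T cell markers, against 29.9% of all genes tested. The opposite direction was seen in 0 of the 6 ligands, 16 of the 20 epithelial markers and 35.2% of all genes. *Tnfsf11*, with 16, 7, 22 and 2 counts in replicates 1 to 4, passed the filter only through replicates 1 and 3. Its direction was thus largely set by the filter. *Tnfsf14*, with 3 counts in replicate 2, passed it through the other libraries, in which it was higher. *Cd40lg*, *Fasl*, *Tnfsf10* and *Ltb* had at least 10 counts in each library. The count of 6 is a description. For *Cd40lg* the log2 differences were -0.998 (replicate 4 minus 3) and -1.43 (replicate 2 minus 1), for *Fasl* -1.87 and -1.07, and for *Tnfsf10* -0.09 and -0.98, beside medians of -1.47 and -1.18 for the T cell markers and 5.69 and 2.38 for the epithelial markers.

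The libraries allow a comparison of the second with the first experiment (2 against 2), which measures replicate error and not an effect of a condition. Among the 6 ligands tested, 0 had a Benjamini-Hochberg adjusted p below 0.05 in the quasi-likelihood test of edgeR (0.9997 for each of them), where the share of all 11689 genes was 0%, and 0 at an unadjusted p under 0.05, where it was 2.12%. DESeq2 also called 0 of the 6, against 0.351% of all genes. *Tnfsf10* had a log2 difference of 1.07 (standard error 0.62), with a mean of 145 CPM in the second and 69.1 CPM in the first experiment. The plasma cell markers were also higher in the second experiment, as given above, and their part in this value was not tested. *Tnfsf14* had a difference of -1.81 (standard error 1.71), *Ltb* of -0.55 (1.19), *Tnfsf11* of -0.91 (2.18) and *Fasl* of -0.25 (0.78). These standard errors leave room for differences of several fold, in either direction except for *Tnfsf10*. For *Tnfsf10* the room lies mainly towards a higher level in the second experiment. The 4 ligands that did not pass the filter were not tested. Without replicate 1, *Tnfsf14* had an unadjusted p of 0.0109 and an adjusted p of 0.997 by the same edgeR test, a value that rests on the 3 counts of replicate 2. Replicate 2 was then the only library of the second experiment, and was assumed to vary like those of the first.

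**Figure D4:**
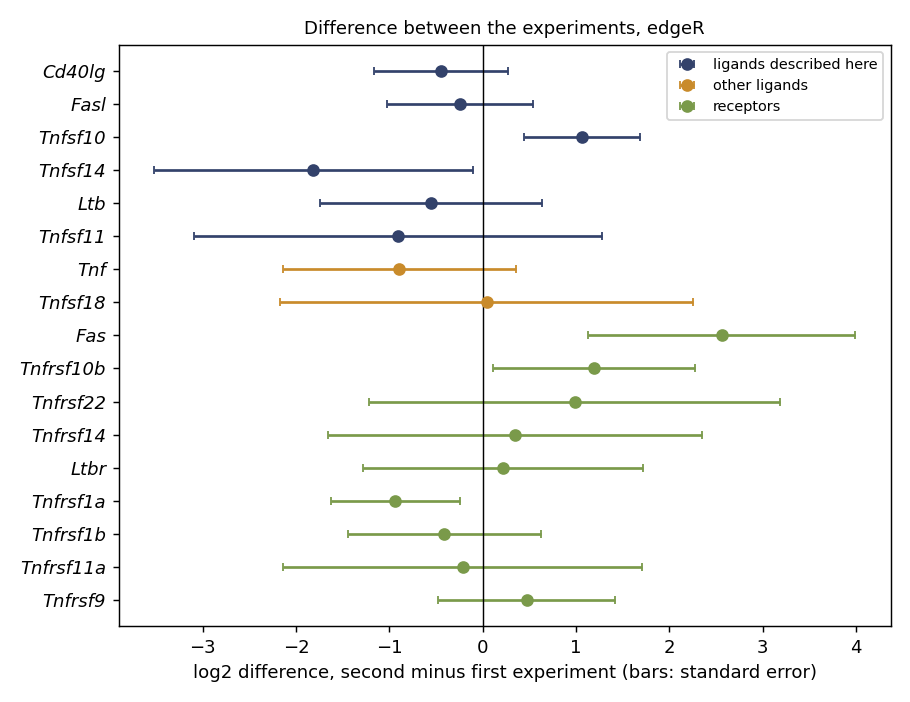
Log2 difference between the second and the first experiment (points) with its standard error (bars) by edgeR, for the ligands described here, other ligands and receptors that passed the filter. *Tnfsf10* stands at 1.07 and *Tnfsf14* at -1.81, and 0 of the genes shown had an adjusted p under 0.05.

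By mean TPM the 10 ligands stood in the order *Cd40lg*, *Fasl*, *Tnfsf10*, *Ltb*, *Tnfsf14*, *Lta*, *Tnfsf11*, *Tnfsf4*, *Tnfsf9* and *Tnfsf8*. Neighbors were compared within libraries on log2(TPM + 0.1) with an exact two-sided sign-flip permutation test, for which 0.125 is the smallest p that 4 libraries allow, so none of the 9 comparisons could pass 0.05. *Cd40lg* was above *Fasl* in 4 of 4 libraries (exact p = 0.125, adjusted over 9 comparisons 0.281), and so were *Fasl* above *Tnfsf10* (by 2.37 ± 0.95 log2 units), *Ltb* above *Tnfsf14* (by 1.70 ± 2.02) and *Tnfsf14* above *Lta* (by 4.50 ± 3.44). *Tnfsf10* and *Ltb* did not differ beyond their spread (0.24 ± 1.38 log2 units, higher in 2 of 4 libraries, exact p = 0.875). The differences of the lower neighbors also had a spread larger than their mean, and so did that of *Ltb* over *Tnfsf14*. *Lta* owed its sixth place to replicate 3, and *Tnfsf4* its place above *Tnfsf9* to replicate 1.

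The superfamily has 8 further ligands in the mouse, of which *Tnf* alone was above 3 counts in every library. *Tnf*, the proinflammatory cytokine that gives the family its name, had 9.86, 9.17, 10.3 and 25.0 CPM, with replicate 4 above the other 3, and a mean TPM of 22.0 ± 10.5. That was below *Ltb* and *Tnfsf14* on average, but above both in replicate 2 and above *Tnfsf14* in replicate 4. *Tnfsf18*, the gene of GITRL, had 75, 1, 32 and 12 counts. *Tnfsf15* had 37 counts in replicate 2 and 0 in the others, *Tnfsf13b*, which encodes BAFF, 5 counts in replicate 4, and *Eda* 4 counts in replicate 2. *Tnfsf12* had at most 2 counts, and *Cd70* and *Tnfsf13* were at 0 counts in all 4 libraries. Of these 8 genes, 2 passed the filter, against 46.3% of all genes. By edgeR, 0 differed between the experiments (0% of all genes tested), and 0 also at an unadjusted p under 0.05 (2.12% of all genes tested).

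Receptors for the 10 ligands were unevenly present in the same libraries. Of 14 receptor genes, 9 passed the filter, against 46.3% of all genes. By edgeR, 0 of these 9 differed between the experiments, where the share of all genes tested was 0%. At an unadjusted p under 0.05 there were also 0, against 2.12% of all genes tested. Highest by mean TPM was *Tnfrsf1b*, a receptor of TNF and soluble lymphotoxin, with 498, 65.8, 454 and 160 TPM in replicates 1 to 4. Lowest was *Tnfrsf8*, the receptor of CD30L, at 0 counts throughout. *Cd40*, the receptor of CD40L, had 1 count in all 4 libraries together, so that the most abundant ligand was found with hardly any transcript of its receptor. *Fas* had 34.2, 32.4, 7.01 and 2.07 TPM, below *Fasl* in every library. *Tnfrsf10b*, the mouse receptor through which TRAIL kills, had 16.1, 64.1, 20.6 and 7.62 TPM. *Tnfrsf14* and *Ltbr*, which bind LIGHT, had means of 46.5 ± 48.0 and 16.7 ± 12.3 TPM, and *Tnfrsf9*, the receptor of 4-1BBL, of 46.2 ± 23.6 TPM. *Tnfrsf11a*, the receptor of RANKL, had 0.746 and 0.547 TPM in replicates 1 and 3 but 20.2 and 19.0 TPM in replicates 2 and 4, the libraries that held more epithelial transcripts than the other of their experiment. The part of epithelial RNA in the values of *Tnfrsf11a* was not tested.

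**Figure D5:**
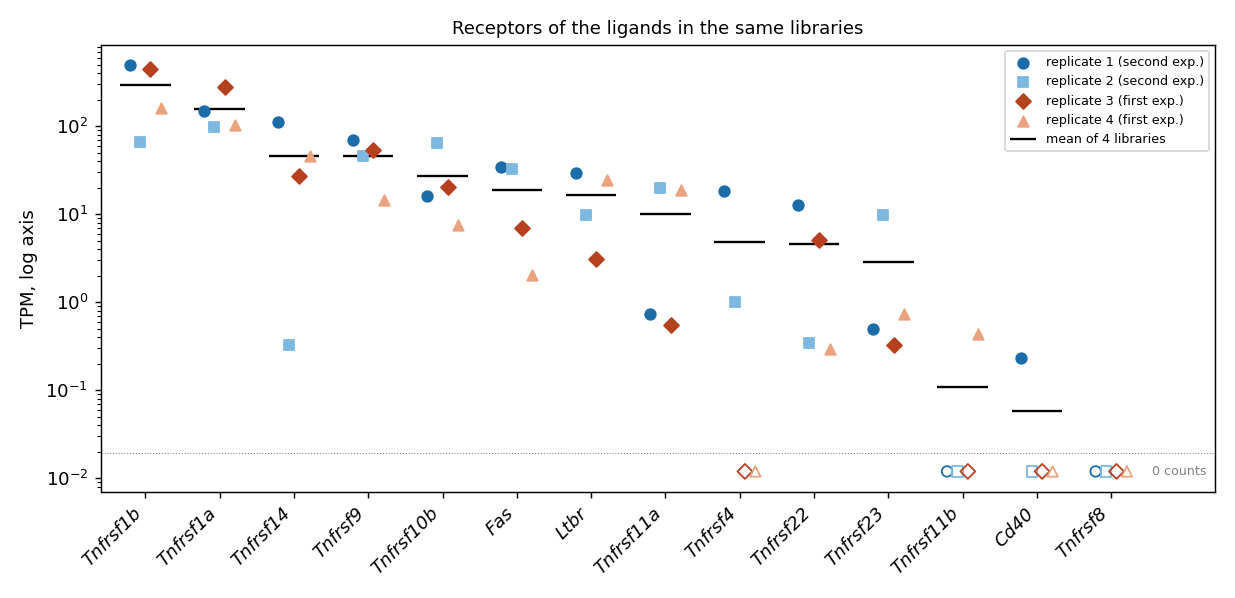
TPM (log axis) of 14 receptors of the ligands in each library, ordered by mean TPM, with means as black lines and libraries at 0 counts as open symbols. *Tnfrsf1b* is highest, *Cd40* and *Tnfrsf8* are at the bottom, and *Tnfrsf11a* is high in replicates 2 and 4 only.

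Among 4 proteases known to cut ligands of the family, *Sppl2a* was highest, with 52.9 ± 23.8 TPM, and *Sppl2b* lowest, with 2.25 ± 1.24 TPM. *Adam17*, the sheddase of TNF, was singled out after its values were seen, with 71.5, 67.8, 67.4 and 74.2 CPM and thus a highest library only 1.10 times the lowest. Of 10 transcription factors known to act on ligand genes, all were above 3 counts in every library, against 35.9% of all genes. Their levels went from *Egr3*, with 17.6 ± 16.0 TPM, to *Egr1*, with 561 ± 452 TPM. *Egr1* ran from 156 TPM in replicate 3 to 1107 TPM in replicate 2. In neither list did a gene differ between the experiments by edgeR at an adjusted p under 0.05, where the share of all genes tested was 0%. At an unadjusted p under 0.05 there were 0, against 2.12% of all genes tested.

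The profile of *Cd40lg* over the 4 libraries was most like those of *Stk10*, *Pag1*, *Atp6v1d*, *Socs2* and *Wipf1*, by the root mean square difference of centered log2 CPM (0.04 to 0.06) among 8088 other genes (10 or more counts in each library). *Fasl* came at place 961 by this measure, with 0.41, *Ltb* at 1839, and *Tnfsf10* at 4057. With 4 libraries many profiles come close by number alone, so this order is a description.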

How the data were processed

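The authors deposited raw counts per gene, which, per the file headers, they made with featureCounts 1.6.4 by assigning read pairs (primary alignments) to exons of mm10 RefSeq genes, with no strand option. The methods name HISAT2 and GRCm39 and a NovaSeq, and the labels name GRCm38.p6 and a HiSeq. Coordinates follow the deposited table (GRCm38). Libraries were made with a kit for low RNA input. Of the 6 library columns, 4 match a sample label, and the other 2 were not used. The deposited gene lengths gave TPM.

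The experiments were compared over the 11689 genes that 2 or more libraries held at 10 or more counts, with edgeR's quasi-likelihood test, TMM factors and Benjamini-Hochberg adjustment at 0.05, after a test on simulated data. Log2 CPM used a prior count of 2. Differences between any pair of libraries exceeded sampling noise (chi-square per degree of freedom at least 104), so no library was a copy. The ligands and gene lists were chosen with earlier results of these data known. Named genes were all 10 ligands, the other ligands, the highest and lowest gene of each further list (other receptors were named for their ligands, after their values were seen) and the 5 genes most like the highest ligand. Alternatives were DESeq2, other factors, filters and scales, and leaving out each replicate. Intervals of marker shares were not printed, as counting error was far smaller than the spread between libraries. DESeq2 1.42.0 and edgeR 4.0.16 (with limma 3.58.1) ran under R 4.3.3, and scipy 1.17.1, pandas 2.3.3 and numpy 2.4.6 under Python 3.11.15.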

Additional observations from a re-analysis of the deposited data

Results flagged for a closer look

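In 9 of 26 ligand and receptor genes examined, a library stood far from the other 3 in CPM, where chance, at about 1 flag in 20 groups, gives 1.3. The gap to the nearest library, as a share of the range, was 0.979 for *Lta* (replicate 3 high), 0.902 for *Tnfsf8* (replicate 1), 1 for *Tnfsf4* (replicate 1), 0.929 for *Tnf* (replicate 4), 1 for *Tnfsf13b* (replicate 4), 1 for *Tnfsf15* and *Eda* (replicate 2), 0.946 for *Tnfrsf23* (replicate 2) and 0.946 for *Tnfrsf4* (replicate 1). Of these genes, *Tnf* alone had more than 3 counts in all 4 libraries, and for the others a near-zero level in 3 libraries sets the gap. Such a gap is close to 1 by construction, so the 9 cannot be read as an excess over the 1.3. Replicate 2 had 112 counts of *Tnfrsf23* and the others 2 to 4, and replicate 1 had 51 counts of *Tnfrsf4* and the others 0 to 4. The genes were drawn from the same 4 libraries and are not independent of each other.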

How the results depend on the processing

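No alternative called a ligand between the experiments, with 4 to 6 ligands tested in each and all 10 without a filter on low counts. Over all genes, edgeR called 0, but 60 without a filter on low counts and 41 with DESeq2, and 0 to 7 with a replicate left out (7 without replicate 3 and 6 without replicate 4); the cause was not tested. A library left alone in its experiment was assumed to vary like those of the other. The sign turned for 3 of the 6 ligands tested. The log2 difference of *Fasl* (-0.25) was 0.058 with library size alone, a scaling that moved the median of all genes from 0.034 to 0.285, and ran from -0.90 to 0.96 with a replicate left out (0.20 without replicate 2 and 0.96 without replicate 3). That of *Cd40lg* (-0.45) ran from -1.29 to 0.12 (0.10 and 0.12 without replicates 2 and 3), and that of *Ltb* (-0.55) from -2.38 to 0.23 (without replicate 2). *Tnfsf10* (1.07) ran from 0.52 without replicate 1 to 1.46 without replicate 2, *Tnfsf14* (-1.81) from -6.86 without replicate 1 to -0.83 without replicate 2, and *Tnfsf11* (-0.91) was -0.27 without replicate 2 and -1.77 without replicate 4. Of the 10 ranks by mean TPM, 6 were kept by mean CPM, 3 by median TPM and 5 to 10 with a replicate left out; by mean CPM *Cd40lg* and *Fasl* stayed first and second. The share of *Cd40lg* (56.7%) was 42.4% in CPM, through gene length, and 54.7% to 58.1% with a replicate left out. Without replicate 3 the mean CPM went from 1.74 to 0.0781 for *Lta*, from 23.5 to 14.9 for *Tnfsf14*, from 2.08 to 1.13 for *Tnfsf11* and from 0.445 to 0.294 for *Tnfsf9*, and without replicate 1 from 0.833 to 0 for *Tnfsf4* and from 0.267 to 0.0319 for *Tnfsf8*. Levels under 0.287 to 0.750 CPM, the value of 3 counts, cannot be told from 0 in a single library. In an alternative chosen after seeing the data, replicates 1 and 3 alone, the summed level was 934 CPM (668 in all), the share of *Cd40lg* 55.7%, the order the same, and 6 ligands were above 3 counts in both. No paired analysis was possible because a single condition was sampled.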
